A study of Mus musculus with 24 samples.

Results

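The cytochrome P450 genes described here are those of families 1 to 3 whose symbols consist of Cyp, the family number, the subfamily letter and the gene number. Cyp2a4, Cyp2a5, Cyp2b9, Cyp2b10 and Cyp2b13 were left out by the rule, as were pseudogenes, and 53 genes remained of 55421 listed in the tables. RNA was sequenced from hepatocytes of 24 male C57BL/6J mice, 8 in ND+veh, 7 in HFD+veh and 9 in HFD+eRapa. ND+veh mice ate the normal diet with vehicle throughout. HFD+veh mice ate the normal diet with vehicle from 4 months of age and were switched at 18 months to a high-fat diet (60% of calories from fat) with vehicle for 9 weeks. HFD+eRapa mice followed the same schedule with rapamycin at 42 ppm, encapsulated in eudragit (eRapa), in the food from 4 months of age onward. Rapamycin inhibits the growth regulator mTORC1. Each library is treated here as 1 animal, which the labels do not state outright. No group received rapamycin on the normal diet, so in HFD+eRapa against ND+veh the diet and the drug cannot be told apart.

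P450 enzymes of families 1 to 3 are haem proteins of the endoplasmic reticulum that oxidise drugs, toxins, steroids and fatty acids with electrons passed on by P450 oxidoreductase. Their genes lie in clusters of recent duplicates, and the xenobiotic receptors AhR, CAR and PXR, together with liver transcription factors, set their transcription. In the liver lobule many are strongest around the central vein, whereas Cyp2f2 is a marker of hepatocytes near the portal tract. Several differ between male and female mice under the pattern of growth hormone secretion. The comparisons ask how the transcripts of this drug-metabolising set stood in aged hepatocytes after a high-fat diet, and how they stood when rapamycin was given with it.

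The clusters could be read from the annotation. On GRCm38 (Gencode M21), 15 Cyp2c members lie on chromosome 19, of which Cyp2c29 occupies chr19:39269405-39330713, plus strand, Cyp2c37 chr19:39992424-40012243, plus strand and Cyp2c50 chr19:40089688-40113950, plus strand. The 8 Cyp2d members lie on chromosome 15 (Cyp2d9 at chr15:82433437-82456845, plus strand), the 8 Cyp2j members on chromosome 4 and the 7 Cyp3a members on chromosome 5 (Cyp3a11 at chr5:145854426-145879964, minus strand). Cyp2e1 (chr7:140763739-140774987, plus strand) and Cyp2f2 (chr7:27119909-27133660, plus strand) are the only members of their subfamilies. Cyp1a2 is at chr9:57676937-57683703, minus strand.

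Bases upstream of 7 genes are shown. The Cyp2c genes among them are duplicates on chromosome 19 that did not all stand alike in the groups, as the values further on show. Cyp3a11, on chromosome 5, is shown beside them. RefSeq promoters (GRCm38.p6) were found for 45 of the 53 members, 28 of them among the members tested. Each run below is 5′ to 3′ on the strand of the gene, lies before its RefSeq start and stops before any Gencode exon of the gene. The Cyp2c29 run lies inside the longer Gencode gene, between its exons. Capitals mark the motifs searched. These were AGGTCA (a nuclear receptor hexamer), CAAAGTCCA (an HNF4A site), GTTAAT (an HNF1 element), TTGCNNAA (a C/EBP core), GCGTG (the AhR core), TTCNNNGAA (a GAS element) and, on the sense strand only, TATAAA. The others were searched on both strands, and in the runs shown no matches overlapped.
Cyp2c37 (chr19:39992274-39992423): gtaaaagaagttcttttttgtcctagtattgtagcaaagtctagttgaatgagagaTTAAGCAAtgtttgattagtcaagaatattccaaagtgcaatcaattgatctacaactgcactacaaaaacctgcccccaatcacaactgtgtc
Cyp2c50 (chr19:40089529-40089678): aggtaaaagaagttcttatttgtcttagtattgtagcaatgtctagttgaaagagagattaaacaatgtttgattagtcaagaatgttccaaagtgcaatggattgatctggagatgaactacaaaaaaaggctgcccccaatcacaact
Cyp2c29 (chr19:39286924-39287073): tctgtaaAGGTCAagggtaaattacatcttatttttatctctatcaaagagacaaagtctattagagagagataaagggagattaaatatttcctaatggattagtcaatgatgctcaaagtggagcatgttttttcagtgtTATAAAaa
Cyp2c38 (chr19:39463076-39463225): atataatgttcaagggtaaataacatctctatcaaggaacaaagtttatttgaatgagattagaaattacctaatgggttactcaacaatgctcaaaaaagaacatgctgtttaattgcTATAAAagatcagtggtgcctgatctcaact
Cyp2c67 (chr19:39649052-39649201): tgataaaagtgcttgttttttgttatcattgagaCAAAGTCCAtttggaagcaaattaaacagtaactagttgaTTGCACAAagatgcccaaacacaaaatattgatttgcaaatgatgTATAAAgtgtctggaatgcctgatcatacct
Cyp2c40 (chr19:39812815-39812964): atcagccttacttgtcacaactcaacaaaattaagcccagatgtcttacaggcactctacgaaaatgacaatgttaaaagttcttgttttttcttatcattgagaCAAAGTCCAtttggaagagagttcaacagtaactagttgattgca
Cyp3a11 (chr5:145879965-145880104): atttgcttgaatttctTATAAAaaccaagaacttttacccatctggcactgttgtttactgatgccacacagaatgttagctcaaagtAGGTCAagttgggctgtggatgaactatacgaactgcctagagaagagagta

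Over 250 upstream bases, the windows of Cyp2c37 and Cyp2c50 were 84.3% identical, counting gaps, the highest value among the pairs of tested Cyp2c members in the table. Cyp2c29 and Cyp2c38 were 68.8% identical. The exact HNF4A letters occurred in the windows of 5 of the 28 tested members (Cyp3a11, Cyp2c67, Cyp2c68, Cyp2c40 and Cyp2c70), against 0.384% of all 32851 windows. For Cyp3a11 they lie closer to the RefSeq start than the run shown, and within the annotated Gencode gene. AGGTCA occurred in 8 of 28 against 14.0% of all windows, and TATAAA in 10 of 28 against 7.59%. For GTTAAT the count was 3 of 28 (6.43% of all windows), for TTGCNNAA 4 of 28 (9.56%), for GCGTG 3 of 28 (28.2%) and for TTCNNNGAA 0 of 28 (7.02%). Windows of duplicated genes share ancestry, so these counts are not independent, and a match of letters is no measure of binding.

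Libraries held between 17.7 and 25.9 M counts (M being 1e+06). All 10 hepatocyte markers were detected, with summed levels of 67553 to 199106 CPM over the 24 libraries. CPM here are counts per M counts after TMM scaling, which adjusts for differences in library make-up. The 12 macrophage markers summed to 52.4 to 1569 CPM in ND+veh, 198 to 5886 in HFD+veh and 19.4 to 1230 in HFD+eRapa. HFD+veh replicates 3, 4, 5 and 6 (2960 to 5886 CPM) stood above every library of the other groups, whereas HFD+veh replicates 1, 2 and 7 lay within the ND+veh range. A member was called when its adjusted p in edgeR's quasi-likelihood test, over 13847 genes, was under 0.05. Of the 53 members 33 passed the filter on low counts and were tested. The 20 that did not are Cyp1b1, Cyp2b19, Cyp2b23, Cyp2c65, Cyp2c66, Cyp2c69, Cyp2d11, Cyp2d34, Cyp2g1, Cyp2j7, Cyp2j8, Cyp2j11, Cyp2j12, Cyp2j13, Cyp2s1, Cyp2t4, Cyp2w1, Cyp3a16, Cyp3a44 and Cyp3a57. The highest count of any of them in a library was 137 (Cyp2c69), and Cyp2c66, Cyp2j7, Cyp2j12 and Cyp2w1 had 0 counts in every library.

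The share of counts taken up by P450 transcripts was lower in each HFD+veh library than in any ND+veh library. The 53 members made up 1.36 to 1.87% of all counts in ND+veh (median 1.58%), 0.746 to 1.32% in HFD+veh (median 0.949%) and 1.20 to 1.66% in HFD+eRapa (median 1.35%). Of the HFD+veh libraries only replicate 2 (1.32%) overlapped HFD+eRapa. The ratio of mean shares was 0.593 for HFD+veh to ND+veh, 1.42 for HFD+eRapa to HFD+veh and 0.840 for HFD+eRapa to ND+veh, and no test was run on it. In bulk samples the share alone does not tell fewer hepatocytes from less P450 RNA per hepatocyte. The 10 hepatocyte markers had a median log2 fold change of -0.08 in HFD+veh against ND+veh. HFD+veh replicate 1, with the highest hepatocyte marker sum of all libraries (199106 CPM), had a share of 0.964%. HFD+veh replicate 6, with the lowest share (0.746%), had a sum of 120715 CPM, and replicate 4, with the lowest sum of HFD+veh (111109 CPM), a share of 0.952%. The part of hepatocyte content in the share was not tested.

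**Figure D1:**
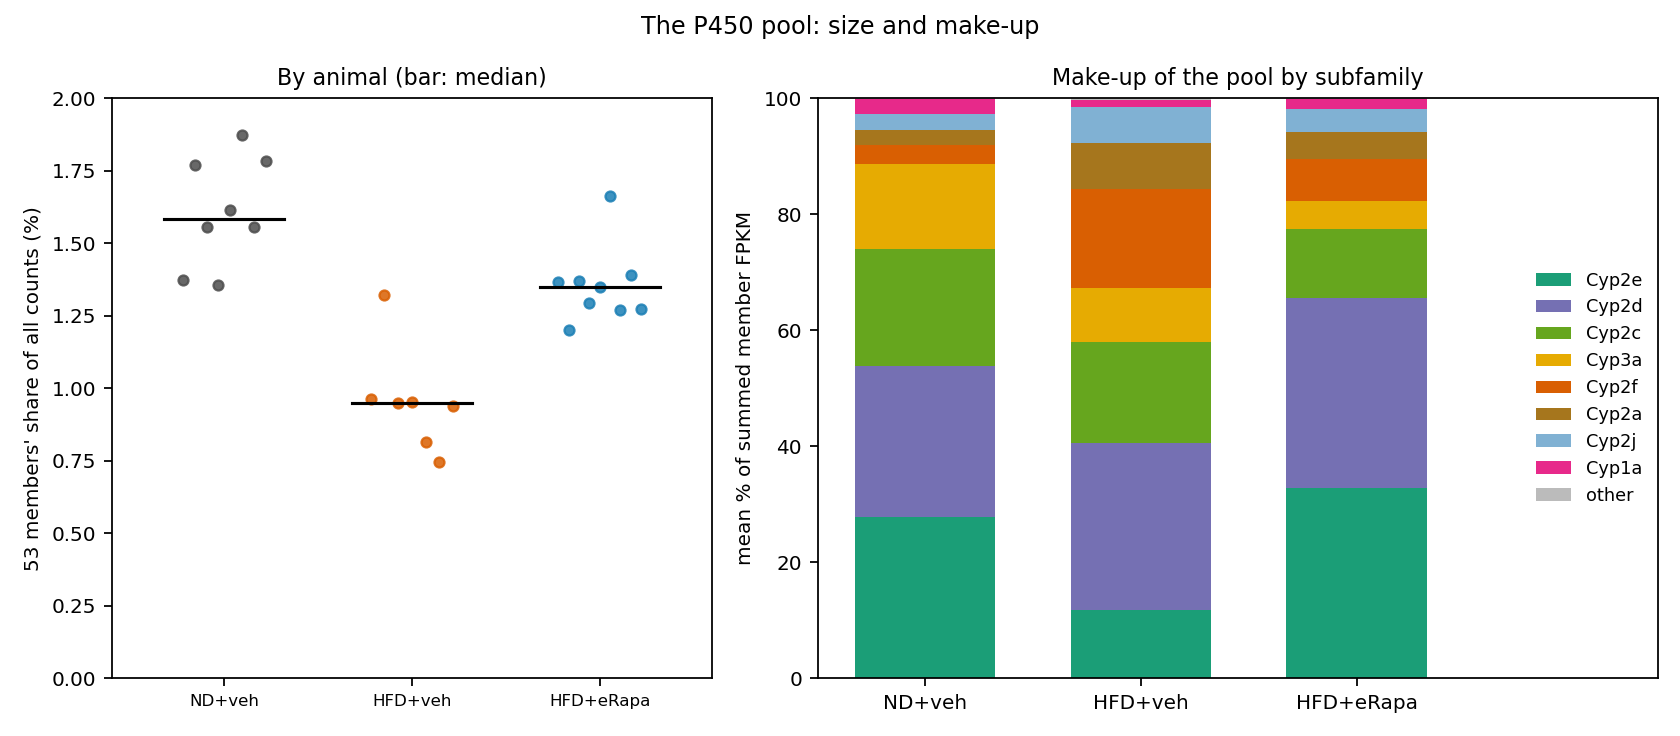
Left, share of all counts held by the 53 members (percent, 1 point per animal, bar at the median) in ND+veh, HFD+veh and HFD+eRapa. Right, mean percent of the summed member FPKM by subfamily in each group. The HFD+veh points lie between 0.746 and 1.32%, below every ND+veh point, and the Cyp2e band is smallest in HFD+veh.

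The make-up of this pool is described without a test. Levels of different genes are compared on the deposited FPKM (fragments per kilobase and per M fragments), which correct for transcript length. In ND+veh, Cyp2e1, which oxidises ethanol, acetone and paracetamol, gave 27.9% ± 4.54 of the summed member FPKM (SD, n = 8). Its part was 11.8% ± 7.66 (n = 7) in HFD+veh and 32.8% ± 4.63 (n = 9) in HFD+eRapa. The portal marker Cyp2f2 went the other way, at 3.38% ± 1.34, 17.1% ± 6.03 and 7.36% ± 1.31 of the pool. The Cyp2d genes held 25.9% ± 2.72 in ND+veh, 28.8% ± 5.07 in HFD+veh and 32.8% ± 4.55 in HFD+eRapa. The Cyp3a genes held 14.6% ± 7.86, 9.39% ± 3.73 and 4.73% ± 1.38, and the Cyp2c genes 20.3% ± 2.99, 17.3% ± 2.23 and 12% ± 3.25 in the same order. As shares they sum to a whole, so a fall of Cyp2e1 lifts the others.

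Averaged over all 24 libraries, Cyp2e1 led at 2070 FPKM, followed by Cyp2d10 (1003), Cyp2f2 (596), Cyp2d9 (575), Cyp2d26 (564) and Cyp3a11 (514). In ND+veh, Cyp2e1 stood at 2096 to 3777 FPKM (median 2609) and Cyp2d10 at 993 to 1398 FPKM (median 1209), and these ranges did not overlap, though that of Cyp3a11, 239 to 2465 FPKM (median 875), reached into the range of Cyp2e1. In HFD+veh the ranges of Cyp2e1, 229 to 2137 FPKM (median 574), of Cyp2d10, 455 to 1089.8 FPKM (median 704), and of Cyp2f2, 520.1 to 1559 FPKM (median 815), overlapped, and the order of these neighbours was not separated by their spread. In HFD+eRapa, Cyp2e1 was above the range of every other member, at 1889 to 3647 FPKM (median 2715). At the low end, Cyp1a1, the AhR target that is inducible in many tissues, had a median of 0.23 FPKM in ND+veh.

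**Figure D2:**
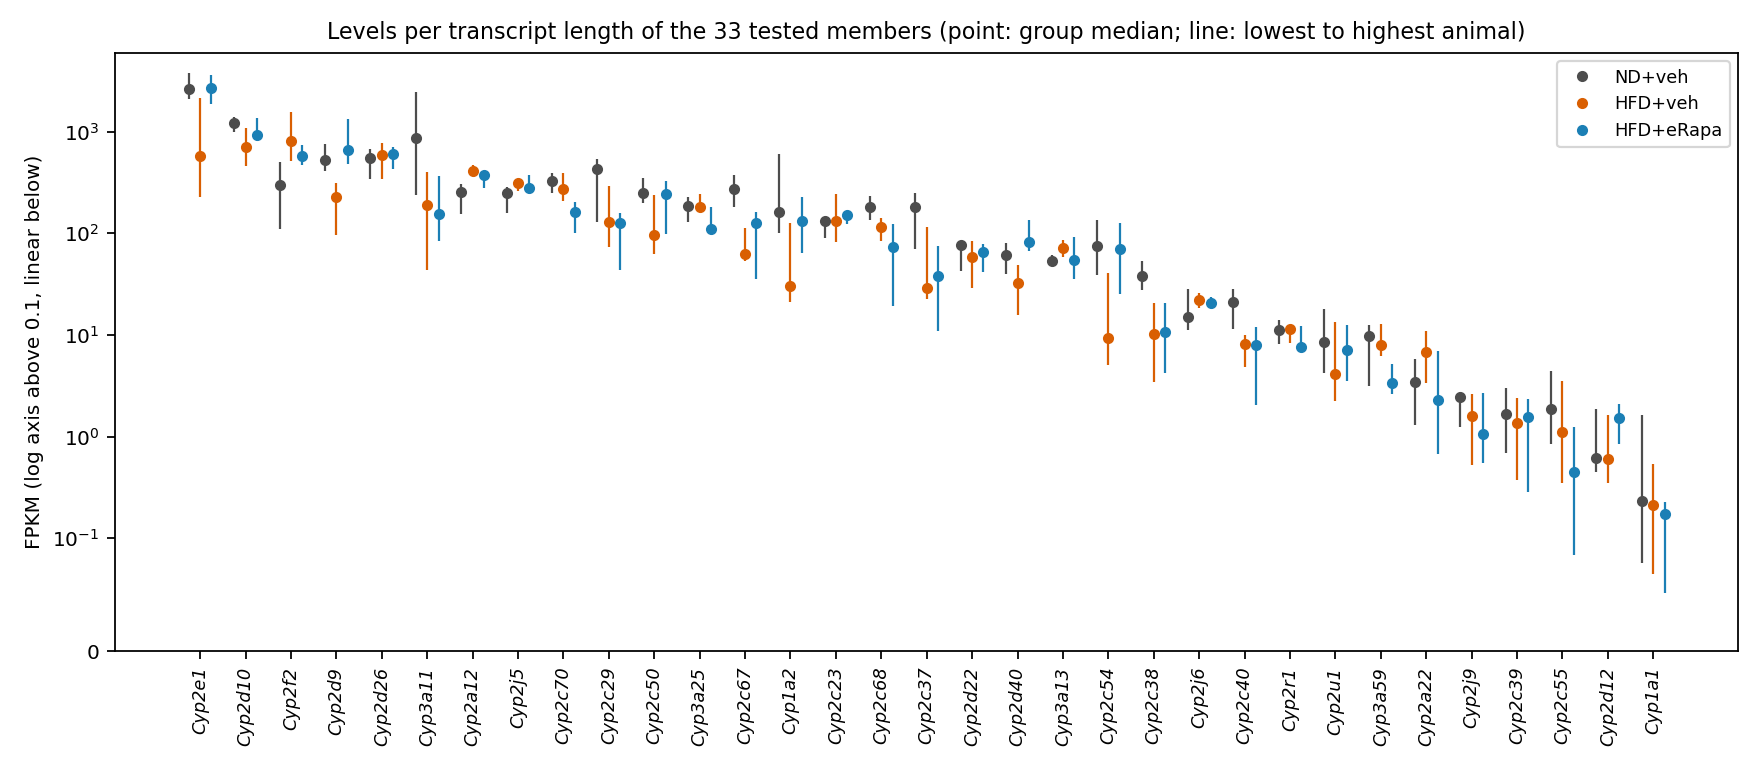
FPKM of the 33 tested members in the order of their mean over all libraries, on an axis that is logarithmic above 0.1 and linear below. Points are group medians and lines run from the lowest to the highest animal. Cyp2e1 has the highest median in ND+veh and HFD+eRapa, and in HFD+veh its range overlaps those of Cyp2d10 and Cyp2f2.

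In HFD+veh against ND+veh, 17 of the 33 tested members were called (51.5%, where 25.9% of all genes tested were called). Of these, 13 fell (39.4% of members, 9.86% of all genes) and 4 rose (12.1% of members, 16% of all genes). The falls took in the ethanol oxidase Cyp2e1, the caffeine oxidase Cyp1a2, the steroid and drug oxidase Cyp3a11, 7 Cyp2c genes and 3 Cyp2d genes, and the rises were Cyp2f2, Cyp2a12, Cyp2a22 and Cyp2j6. The median log2 fold change over the tested members was -0.52, against 0.05 over all genes. In 4 members the ranges of HFD+veh and ND+veh were apart (Cyp2c38 and Cyp2c67 lower, Cyp2a12 and Cyp2f2 higher), where 2.44% of all genes had non-overlapping animals.

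Macrophage markers moved with this contrast. Of 12, 4 rose, and the median of the list was 2.09 on the log2 scale, with 1 of 10 endothelial, 3 of 10 stellate cell, 3 of 4 tested neutrophil and 3 of 3 tested cholangiocyte markers also higher. Of 10 hepatocyte markers 1 was lower. When HFD+veh replicates 3 to 6 were left out, 9 members were called, 5 lower and 4 higher, and 4.94% of all genes. Among the 9, 8 had been called with all libraries. Cyp2e1, Cyp1a2, Cyp2c38, Cyp2c67 and Cyp3a11 were still lower, and Cyp2f2, Cyp2a12 and Cyp2j6 still higher, while none of the 12 macrophage markers was called and 2 of 10 stellate cell markers were lower. In that fit 2 of 3 cholangiocyte markers (median 1.53) and 1 of 10 hepatocyte markers were higher. The remaining call, Cyp2c23, was absent from the fit of all libraries. Fewer animals and fewer macrophage transcripts cannot be told apart in this fit. With all libraries and an immune marker score as covariate, 14 members were called, beside 8.44% of all genes. Of these, 13 had been called without it, and the calls of Cyp2a22, Cyp2c40, Cyp2d10 and Cyp2d40 were lost. The part of the other cell types in the calls was not tested beyond these fits.

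Cyp2e1 transcripts stood at 2968 to 6627 CPM (median 4503) in ND+veh, 459 to 3584 CPM (median 935) in HFD+veh and 4096 to 6625 CPM (median 4886) in HFD+eRapa. HFD+veh replicate 2, at 3584 CPM, was the only HFD+veh library inside the ND+veh range, and the next highest, replicate 4, had 1158. Cyp2e1 was 3.81-fold lower in HFD+veh (log2 fold change -1.93 ± 0.32 (SE), adjusted p = 3.60e-04). The lowest level belonged to HFD+veh replicate 1 (459 CPM), whose macrophage markers, at 198 CPM, lay within the ND+veh range. Without the libraries high in macrophage markers the log2 fold change was -1.54, adjusted p = 0.0438.

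Cyp1a2, which activates aromatic amines and clears caffeine, stood at 197 to 911 CPM (median 317) in ND+veh, 46.3 to 229 CPM (median 62.8) in HFD+veh and 149 to 448 CPM (median 244) in HFD+eRapa. Its highest library was ND+veh replicate 4, and the HFD+veh animals were split, with 229, 182 and 200.1 CPM in replicates 2, 3 and 4 and at most 62.8 in the others. Cyp1a2 was 3.3-fold lower in HFD+veh (log2 fold change -1.72 ± 0.39 (SE), adjusted p = 0.00406), and its value without the libraries high in macrophage markers was -1.77, adjusted p = 0.0494. Cyp1a1 had at most 117 counts in a library and was not called (-0.57 ± 0.47, adjusted p = 0.38).

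**Figure D3:**
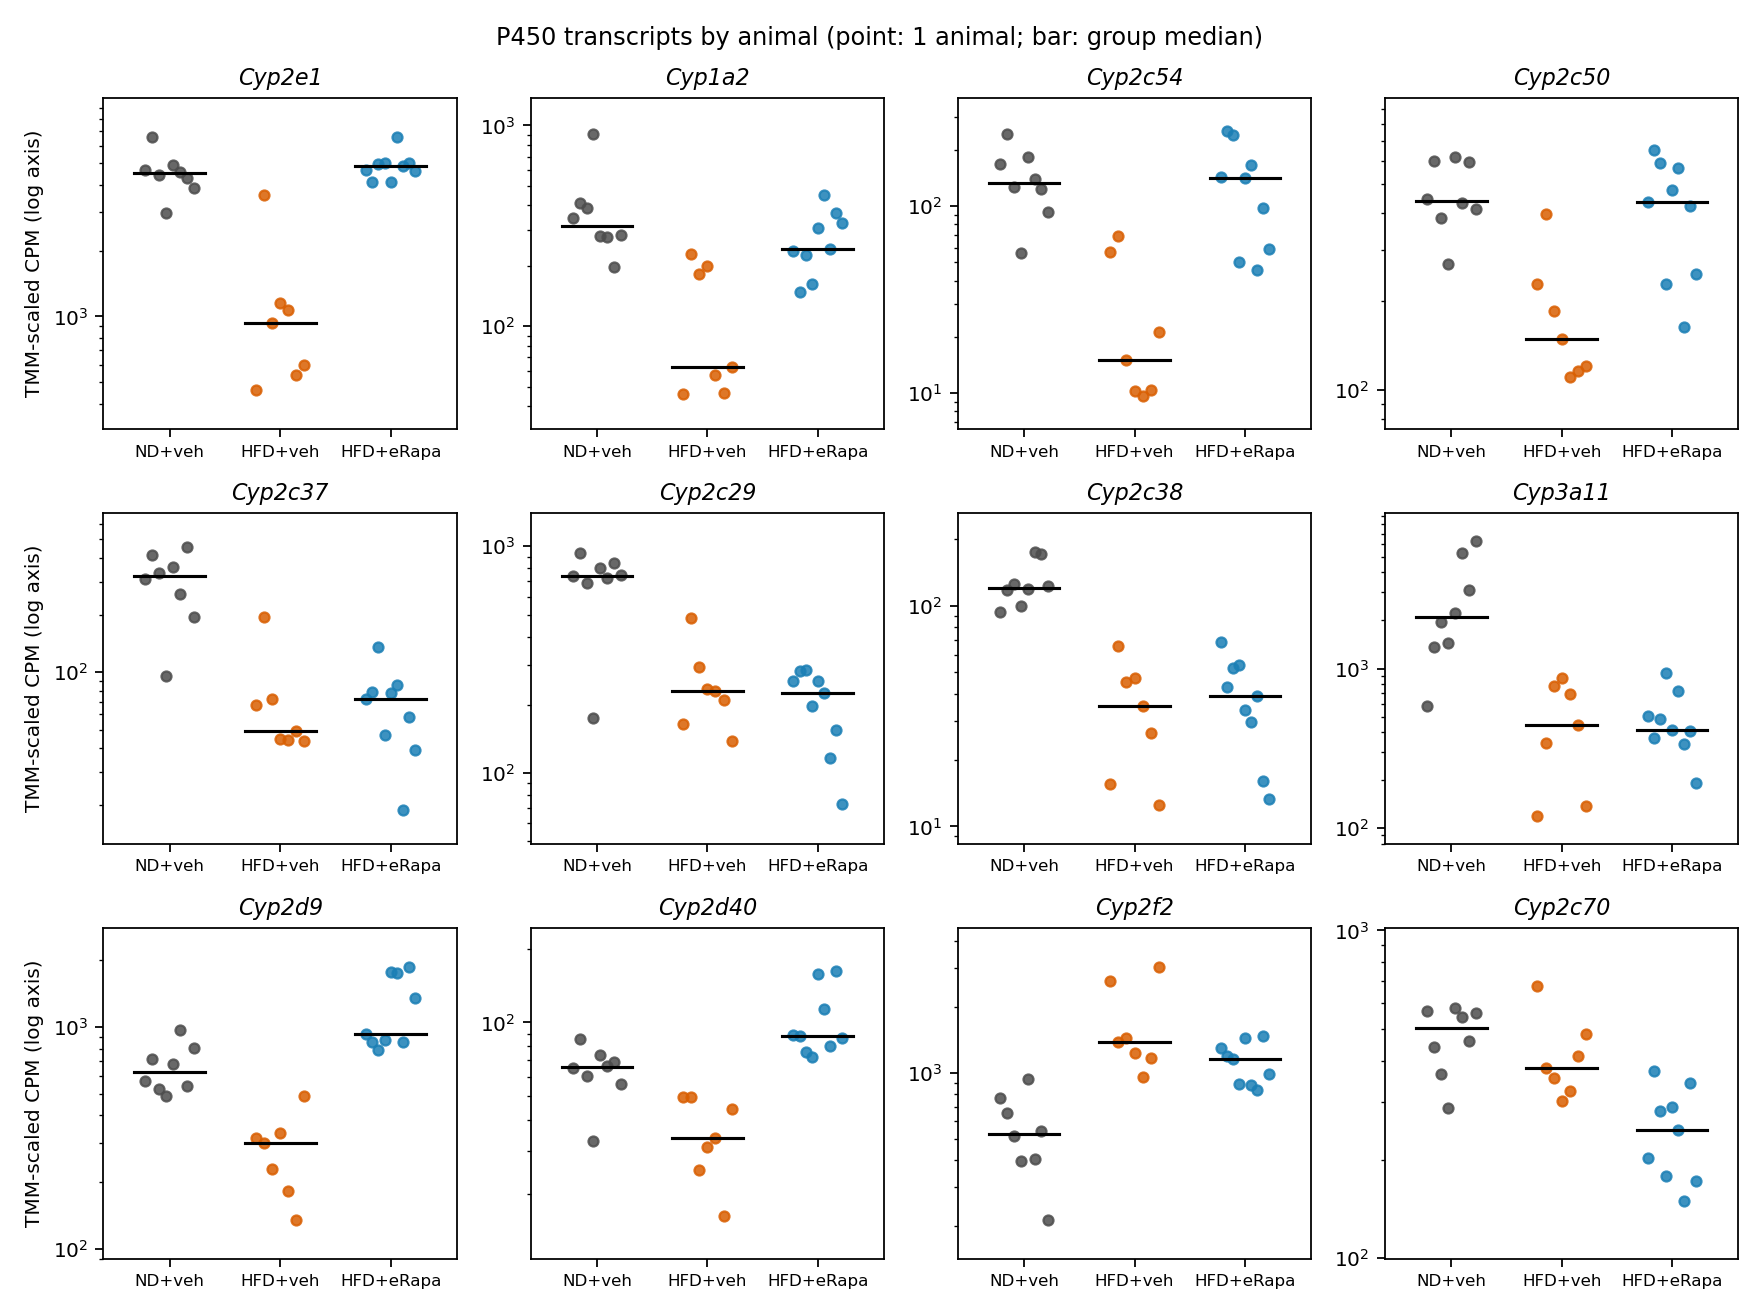
TMM-scaled CPM (log axis) of 12 P450 transcripts in ND+veh (n = 8), HFD+veh (n = 7) and HFD+eRapa (n = 9), with 1 point per animal and a bar at the group median. The HFD+eRapa medians of Cyp2e1 and Cyp2c54 lie near those of ND+veh, those of Cyp2c37, Cyp2c29, Cyp2c38 and Cyp3a11 near those of HFD+veh, and the HFD+eRapa animals lie for Cyp2d9 and Cyp2d40 above the HFD+veh animals without overlap.

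Of the Cyp2c subfamily, whose products oxidise drugs and turn arachidonic acid into epoxides, 12 of 15 members were tested and 7 fell in HFD+veh. Cyp2c54 was 5.14-fold lower (log2 fold change -2.36 ± 0.49 (SE), adjusted p = 0.00237), with levels of 56.3 to 242 CPM (median 133) in ND+veh, 9.67 to 69 CPM (median 15) in HFD+veh and 45.6 to 251 CPM (median 141) in HFD+eRapa. Its HFD+veh libraries with macrophage markers inside the ND+veh range, replicates 1, 2 and 7, read 57, 69 and 21.3 CPM, and replicates 3 to 6 read between 9.67 and 15. The level of the neighbouring Cyp2c37 was 95.6 to 459 CPM (median 322) in ND+veh, 43.3 to 197 CPM (median 49) in HFD+veh and 18.7 to 135 CPM (median 72.2) in HFD+eRapa, and it was 4.1-fold lower in HFD+veh (log2 fold change -2.04 ± 0.40 (SE), adjusted p = 0.00136). Cyp2c50, whose upstream bases resemble those of Cyp2c37, stood at 267 to 618 CPM (median 438) in ND+veh, 111 to 396 CPM (median 149.5) in HFD+veh and 164 to 652 CPM (median 434) in HFD+eRapa and was 2.51-fold lower (log2 fold change -1.33 ± 0.30 (SE), adjusted p = 0.00418). In each of these 3 genes only part of the HFD+veh animals lay below every ND+veh animal. Without the HFD+veh libraries high in macrophage markers their log2 fold changes were -1.52, adjusted p = 0.136 for Cyp2c54, -1.56, adjusted p = 0.118 for Cyp2c37 and -0.91, adjusted p = 0.24 for Cyp2c50, and none was called.

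Cyp2c67 had the smallest adjusted p of the members in this contrast. It stood at 221 to 605 CPM (median 423) in ND+veh, 89.5 to 169.6 CPM (median 101) in HFD+veh and 54.2 to 289.7 CPM (median 208) in HFD+eRapa, with no overlap of HFD+veh and ND+veh animals, and was 3.78-fold lower (log2 fold change -1.92 ± 0.25 (SE), adjusted p = 2.61e-05). Cyp2c38 gave 93.4 to 175 CPM (median 121) in ND+veh, 12.5 to 65.5 CPM (median 35.1) in HFD+veh and 13.3 to 68.6 CPM (median 38.9) in HFD+eRapa. All HFD+veh animals lay under the lowest ND+veh animal, and the gene was 3.62-fold lower (log2 fold change -1.86 ± 0.34 (SE), adjusted p = 8.09e-04). Both calls held without the libraries high in macrophage markers (-1.79, adjusted p = 0.00743 for Cyp2c67 and -2.02, adjusted p = 0.0245 for Cyp2c38).

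Cyp2c29, an arachidonic acid epoxygenase and a target of CAR, read 175 to 934 CPM (median 743) in ND+veh, 138 to 484 CPM (median 230.0) in HFD+veh and 73.1 to 286 CPM (median 225) in HFD+eRapa. It was 2.82-fold lower in HFD+veh (log2 fold change -1.50 ± 0.32 (SE), adjusted p = 0.00258), and ND+veh replicate 4, at 175 CPM, lay apart from the other ND+veh animals and within the HFD+veh range. Its call was lost without the libraries high in macrophage markers (-1.42, adjusted p = 0.0998). That animal was the lowest of ND+veh for 10 of the 13 members that fell. Cyp2c68 was not called (-0.70 ± 0.26, adjusted p = 0.0511) but was without ND+veh replicate 4 (-0.81, adjusted p = 0.0293) or HFD+veh replicate 2 (-0.75, adjusted p = 0.0413). Cyp2c70 (-0.18 ± 0.21), Cyp2c55 (-0.52 ± 0.44), Cyp2c39 (-0.16 ± 0.36) and Cyp2c23 (0.19 ± 0.20) were not called.

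Cyp2c40, a gene with higher expression in female liver, was low and uneven. It stood at 0.22 to 10.8 CPM (median 4.09) in ND+veh, 0.261 to 3.39 CPM (median 0.446) in HFD+veh and 0.0527 to 0.68 CPM (median 0.171) in HFD+eRapa, and ND+veh replicates 4, 6 and 8 (0.220 to 0.733 CPM) overlapped the HFD+veh animals. On FPKM no animal overlapped, with 11.4 to 28.1 FPKM (median 21.3) in ND+veh and 4.88 to 10.1 FPKM (median 8.12) in HFD+veh. It was called lower (log2 fold change -2.43 ± 0.73 (SE), adjusted p = 0.019) and lost that call with an immune marker score as covariate (-1.12, adjusted p = 0.414), with voom (-1.74, adjusted p = 0.345), with only the 2 groups fitted (-2.44, adjusted p = 0.0572), with the replicate block (-2.16, adjusted p = 0.0669) and without the libraries high in macrophage markers (-1.86, adjusted p = 0.382). With limma on FPKM at a pseudocount of 1 it held (-1.23, adjusted p = 0.00111). Of 50-base windows of its transcript 72.1% also occur in transcripts of another gene, the largest part of them in the near copy Cyp2c69, and its mean of 42.9 counts stood beside 12.1 FPKM (3.55 counts per FPKM, where the median over tested members was 37.8). Reads of such copies may be split or dropped by the counting, so values for Cyp2c40, and to a lesser degree for Cyp2c67 (52.8% of windows shared) and Cyp2c68 (43.3%), are uncertain.

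In the Cyp2d subfamily 3 of 6 tested members fell. Cyp2d9, a steroid 16-alpha-hydroxylase that is typical of male liver, read 487 to 971 CPM (median 626) in ND+veh, 135 to 489.5 CPM (median 300.5) in HFD+veh and 791 to 1868 CPM (median 930.5) in HFD+eRapa. HFD+veh replicate 7, at 489.5 CPM, was the only HFD+veh animal above the lowest ND+veh animal, and Cyp2d9 was 2.34-fold lower (log2 fold change -1.23 ± 0.25 (SE), adjusted p = 0.00224). Cyp2d40 gave 33 to 85.8 CPM (median 65.7) in ND+veh, 16.3 to 49.6 CPM (median 33.9) in HFD+veh and 72.5 to 162 CPM (median 88.3) in HFD+eRapa and was 1.78-fold lower (log2 fold change -0.83 ± 0.23 (SE), adjusted p = 0.0134). Cyp2d10 was the most abundant Cyp2d transcript on mean FPKM. It stood at 648 to 1113 CPM (median 971) in ND+veh, 404 to 920.3 CPM (median 648) in HFD+veh and 695 to 1052 CPM (median 904) in HFD+eRapa. Cyp2d10 was 1.51-fold lower in HFD+veh (log2 fold change -0.59 ± 0.15 (SE), adjusted p = 0.0088). None of these 3 was called without the libraries high in macrophage markers, where the log2 fold changes were -0.84, adjusted p = 0.123 for Cyp2d9, -0.41, adjusted p = 0.48 for Cyp2d40 and -0.25, adjusted p = 0.452 for Cyp2d10. Cyp2d9 overlaps other annotated genes, of which 1 is antisense, and the counting of strand is not stated. Of their 50-base windows, Cyp2d10 shares 40.5%, Cyp2d9 29.0% and Cyp2d40 24.15% with other transcripts, so reads of these copies may be split or dropped. Cyp2d26, nearly as abundant as Cyp2d9 on mean FPKM, had a log2 fold change of 0.06 ± 0.18 (95% interval -0.30 to 0.42) and Cyp2d22 of -0.22 ± 0.19.

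Cyp3a11, the main PXR target among mouse drug oxidases, was the member with the largest fall in this contrast. It stood at 581 to 6279 CPM (median 2104) in ND+veh, 119 to 873 CPM (median 440.1) in HFD+veh and 193 to 940.4 CPM (median 414) in HFD+eRapa, and was 5.77-fold lower in HFD+veh (log2 fold change -2.53 ± 0.50 (SE), adjusted p = 0.00145). ND+veh replicate 1, at 581 CPM, lay among the HFD+veh animals, and replicates 6 and 8, at 5313 and 6279 CPM, were highest. The HFD+veh animals outside the set high in macrophage markers were the lowest in Cyp3a11, with 119, 343 and 137 CPM in replicates 1, 2 and 7. Their macrophage markers summed to 198, 199 and 1082 CPM, so replicate 7 was not low in them. With those 3 as the only HFD+veh animals the log2 fold change of Cyp3a11 was -3.78, adjusted p = 0.00291. The other Cyp3a members tested were not called, at 0.09 ± 0.15 for Cyp3a25, 0.03 ± 0.23 for Cyp3a59 and 0.45 ± 0.18 for Cyp3a13 (adjusted p = 0.0678).

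Cyp2f2, which activates naphthalene, was 3.06-fold higher in HFD+veh (log2 fold change 1.61 ± 0.27 (SE), adjusted p = 3.60e-04). Its levels were 212 to 939.6 CPM (median 528) in ND+veh, 960.4 to 3063 CPM (median 1379) in HFD+veh and 838 to 1469 CPM (median 1159.8) in HFD+eRapa, and no HFD+veh animal overlapped an ND+veh animal. An antisense gene, Gm15883, overlaps Cyp2f2, and without strand their reads cannot be told apart. Without the libraries high in macrophage markers the log2 fold change was 2.09, adjusted p = 2.90e-04. Cyp2a12, a steroid hydroxylase, read 258 to 501 CPM (median 380.0) in ND+veh, 592 to 839.9 CPM (median 644) in HFD+veh and 445 to 787 CPM (median 639) in HFD+eRapa, again with HFD+veh and ND+veh apart, and was 1.79-fold higher (log2 fold change 0.84 ± 0.15 (SE), adjusted p = 5.12e-04). Cyp2j6, an epoxygenase, stood at 45.8 to 85.1 CPM (median 57.6) in ND+veh, 73.8 to 95.5 CPM (median 86.7) in HFD+veh and 71.2 to 102 CPM (median 84.3) in HFD+eRapa and was 1.4-fold higher (log2 fold change 0.49 ± 0.11 (SE), adjusted p = 0.00507). Cyp2a22 was higher too (1.11 ± 0.40, adjusted p = 0.0426), but the call was lost under 20 of 27 alternatives. Reads of Cyp2a12 and Cyp2a22 may be shared, since 27.5% and 25.7% of their windows occur in other transcripts. Cyp2j5 (0.31 ± 0.15), Cyp2j9 (-0.55 ± 0.33), Cyp2d12 (0.50 ± 0.66), Cyp2u1 (-0.36 ± 0.42) and the vitamin D 25-hydroxylase Cyp2r1 (-0.12 ± 0.16) were not called.

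By lobular position, the 6 members listed as pericentral (Cyp1a2, Cyp2e1, Cyp2c29, Cyp2c37, Cyp2c50 and Cyp2c54) were all called lower, with a median log2 fold change of -1.83, and the periportal Cyp2f2 was called higher. Over all genes, 9.86% were called lower and 16% higher. Without the libraries high in macrophage markers 2 of the 6 were called, both lower, beside 4.94% of all genes called. The median of the 6 was then -1.53. The list was drawn up with earlier results of these data known, and position in the lobule was not measured here.

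In HFD+eRapa against HFD+veh, 12 of the 33 tested members were called (36.4%, where 32% of all genes tested were called). Of these, 8 rose (24.2% of members, 10.9% of all genes), namely Cyp2e1, Cyp1a2, Cyp2c50, Cyp2c54, Cyp2c67, Cyp2d9, Cyp2d10 and Cyp2d40, each of which was lower in HFD+veh than ND+veh. The other 4 fell (12.1% of members, 21.1% of all genes), namely Cyp2a22, Cyp2c70, Cyp3a25 and Cyp3a59. The median log2 fold change was 0.00 over the members tested and -0.04 over all genes. Animals did not overlap in 4 members (Cyp2e1, Cyp2d9 and Cyp2d40 higher, Cyp3a59 lower), beside 2.59% of all genes. The contrast shares its HFD+veh animals with the one above, so the values of each are given side by side and the overlap of their calls is no independent evidence.

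Other cell types moved with this contrast more widely. Lower in HFD+eRapa were 10 of 12 macrophage, 10 of 10 endothelial and 10 of 10 stellate cell markers, with medians of -2.72, -1.53 and -2.16 on the log2 scale, while 1 of 10 hepatocyte markers was higher. With HFD+veh replicates 3 to 6 left out, 4 members were called (Cyp2e1, Cyp2d9 and Cyp2d40 higher, Cyp2c70 lower), beside 3.14% of all genes, and none of the 12 macrophage, 10 endothelial or 10 stellate cell markers. There, 1 of 10 hepatocyte markers was lower, and the median of that list was -0.63. All 4 had been called with all libraries. With an immune marker score as covariate 8 were called, beside 6.61% of all genes. Of these, 5 had been called without it (Cyp2e1, Cyp2c54, Cyp2d9, Cyp2d40 and Cyp2c70). The calls of Cyp1a2, Cyp2c50, Cyp2c67, Cyp2d10, Cyp2a22, Cyp3a25 and Cyp3a59 were lost.

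Cyp2e1 was 4.1-fold higher in HFD+eRapa than HFD+veh (log2 fold change 2.04 ± 0.32 (SE), adjusted p = 1.40e-04), and the lowest HFD+eRapa animal, at 4096 CPM, stood above the highest HFD+veh animal, at 3584. With the libraries high in macrophage markers left out the log2 fold change was 1.65, adjusted p = 0.0397. Against ND+veh it was 0.11 ± 0.29 (95% interval -0.46 to 0.67). Cyp1a2 was 2.33-fold higher than in HFD+veh (log2 fold change 1.22 ± 0.38 (SE), adjusted p = 0.0158), with overlapping animals, and -0.50 ± 0.35 from ND+veh on the log2 scale (95% interval -1.19 to 0.19). Its call was lost without the libraries high in macrophage markers (1.28, adjusted p = 0.2).

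**Figure D4:**
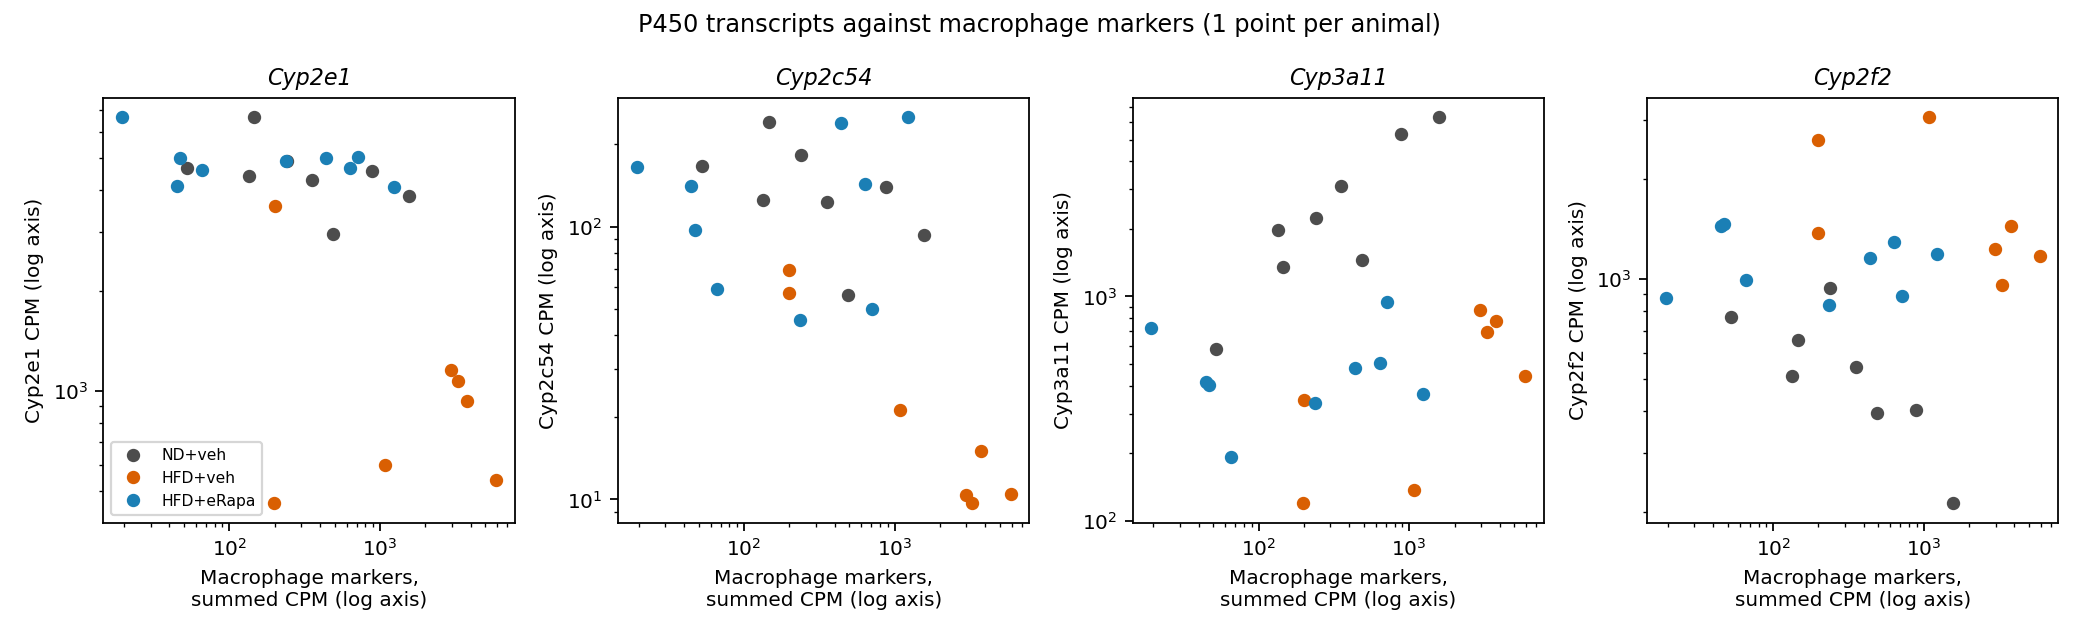
CPM of Cyp2e1, Cyp2c54, Cyp3a11 and Cyp2f2 (log axis) against the summed CPM of 12 macrophage markers (log axis), 1 point per animal. HFD+veh replicates 3 to 6 lie to the right of all other animals. HFD+veh replicate 1, at 198 CPM of macrophage markers, has the lowest Cyp2e1 and the lowest Cyp3a11.

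The Cyp2c genes did not stand alike under eRapa. Cyp2c54 was 4.81-fold higher than in HFD+veh (log2 fold change 2.27 ± 0.48 (SE), adjusted p = 0.00186) and Cyp2c50 2.25-fold higher (log2 fold change 1.17 ± 0.29 (SE), adjusted p = 0.00515). Cyp2c67 was 1.82-fold higher (log2 fold change 0.86 ± 0.24 (SE), adjusted p = 0.00874), although HFD+eRapa replicate 9, at 54.2 CPM, lay below all HFD+veh animals. For Cyp2c37 the log2 fold change was -0.12 ± 0.37 (95% interval -0.84 to 0.60), for Cyp2c29 -0.29 ± 0.30 (-0.88 to 0.29) and for Cyp2c38 0.13 ± 0.32 (-0.49 to 0.76), and none of them was called. The difference between the responses of Cyp2c37 and Cyp2c50, whose upstream bases were shown above, was not tested. Of their 50-base windows, Cyp2c37 shares 30.1%, Cyp2c50 30.7% and Cyp2c54 25.7% with other transcripts, so reads of these copies may be split or dropped. Without the libraries high in macrophage markers Cyp2c54 (1.43, adjusted p = 0.202), Cyp2c50 (0.76, adjusted p = 0.421) and Cyp2c67 (0.74, adjusted p = 0.349) were not called.

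Cyp2c70, which makes the muricholic bile acids of mice, was 1.69-fold lower in HFD+eRapa than HFD+veh (log2 fold change -0.76 ± 0.20 (SE), adjusted p = 0.00651) after a high-fat diet value of -0.18 ± 0.21 against ND+veh. Its levels were 287 to 582 CPM (median 502) in ND+veh, 302 to 678 CPM (median 379.9) in HFD+veh and 149 to 373 CPM (median 246) in HFD+eRapa, with overlap between all groups. Leaving out the libraries high in macrophage markers gave -1.04, adjusted p = 0.0226. In Cyp2c70 no 50-base window was shared with another gene. Cyp2c68 stood at 174 to 405 CPM (median 303) in ND+veh, 150.0 to 231 CPM (median 197) in HFD+veh and 30.2 to 254 CPM (median 125) in HFD+eRapa, with HFD+eRapa replicate 9 lowest, and was not called against HFD+veh (-0.46 ± 0.25, adjusted p = 0.164). Cyp2c40 missed the threshold as well (-1.88 ± 0.74, adjusted p = 0.0538), as did Cyp2c55 (-1.11 ± 0.44, adjusted p = 0.0542). On FPKM the Cyp2c40 means were 7.96 ± 1.77 for HFD+veh and 7.91 ± 2.85 for HFD+eRapa (SD), with a log2 difference of -0.07 at a pseudocount of 1 (limma, adjusted p = 0.851). On counts Cyp2c40 passed the threshold without HFD+veh replicate 1, 5 or 7 or HFD+eRapa replicate 8 (-2.20 to -2.00), Cyp2c55 without HFD+veh replicate 1, 2 or 7 or HFD+eRapa replicate 1 or 2 (-1.30 to -1.20), and Cyp2c68 without HFD+eRapa replicate 2 (-0.62, adjusted p = 0.0452).

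Cyp2d9 showed the smallest adjusted p of the members against HFD+veh. It was 4.33-fold higher (log2 fold change 2.12 ± 0.26 (SE), adjusted p = 1.11e-05), and all 9 HFD+eRapa animals stood above all 7 HFD+veh animals. The HFD+eRapa animals formed a lower set of 5 between 791 and 930.5 CPM and a higher set of 4 between 1354 and 1868. The higher set, replicates 5, 6, 8 and 9, also had the lowest macrophage marker sums of HFD+eRapa. These were 19.4 to 65.9 CPM, beside 236 to 1230 CPM in the lower set, and a link with Cyp2d9 was not tested. Cyp2d40 was 2.88-fold higher (log2 fold change 1.53 ± 0.23 (SE), adjusted p = 1.02e-04), likewise without overlap. Both calls held without the libraries high in macrophage markers (1.75, adjusted p = 0.00377 for Cyp2d9 and 1.11, adjusted p = 0.0272 for Cyp2d40). Cyp2d10 was 1.38-fold higher (log2 fold change 0.47 ± 0.15 (SE), adjusted p = 0.0197), a call that was lost when HFD+veh replicate 3 (0.43, adjusted p = 0.0524), 4 (0.42, adjusted p = 0.0525) or 6 (0.39, adjusted p = 0.0516) was left out. Without all the libraries high in macrophage markers it was 0.13, adjusted p = 0.807.

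Among the Cyp3a genes, Cyp3a11 was not called, with a log2 fold change of 0.00 ± 0.45 and a 95% interval of -0.87 to 0.88. Cyp3a25 was 1.43-fold lower (log2 fold change -0.52 ± 0.14 (SE), adjusted p = 0.00922), from levels of 272 to 516 CPM (median 404) in ND+veh, 368 to 494 CPM (median 419) in HFD+veh and 231 to 425 CPM (median 259.7) in HFD+eRapa. Cyp3a59 was lower without overlap (-1.06 ± 0.23, adjusted p = 0.00194). The calls of Cyp3a25 and Cyp3a59 were lost without the libraries high in macrophage markers (-0.54, adjusted p = 0.15 and -0.85, adjusted p = 0.143), and the copies share 26.8% and 28.0% of their windows with other transcripts. Cyp2f2 was -0.59 ± 0.26 (adjusted p = 0.0842), Cyp2a12 -0.11 ± 0.14 and Cyp2j6 0.00 ± 0.11, none of them called. Cyp2f2 passed the threshold without HFD+veh replicate 5 (-0.69, adjusted p = 0.0490). Cyp2a22 was lower (-1.08 ± 0.39, adjusted p = 0.0352), a call lost under 14 of 28 alternatives.

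Of the 6 pericentral members, 4 were called higher in HFD+eRapa than HFD+veh (Cyp1a2, Cyp2e1, Cyp2c50 and Cyp2c54). The others, Cyp2c29 (-0.29) and Cyp2c37 (-0.12), were not called. The median of the 6 was 1.20, and the list was drawn up with earlier results of these data known. Over all genes, 10.9% were called higher. Without the libraries high in macrophage markers only Cyp2e1 of the 6 was called, beside 3.14% of all genes, and the median was 1.02.

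HFD+eRapa against ND+veh does not use the HFD+veh animals in its fold changes, but shares 1 group with each of the other contrasts. None of the 12 macrophage and 10 endothelial markers was called in it, though 5 of 10 stellate cell markers were lower. Of 3 tested cholangiocyte markers 1 was higher (median of the list 1.56). None of 4 tested neutrophil markers was called, with a median of 1.78. Here 16 of the 33 tested members were called (48.5%, where 13.5% of all genes tested were called). Of these, 11 were lower (33.3% of members, 6.54% of all genes) and 5 higher (15.2% of members, 6.93% of all genes). The lower members were 8 Cyp2c genes and 3 Cyp3a genes, and the higher were Cyp2d9, Cyp2d40, Cyp2f2, Cyp2a12 and Cyp2j6. The median log2 fold change was -0.13 over the members and -0.03 over all genes. Only Cyp2c38 had non-overlapping animals, beside 3.37% of all genes.

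Cyp3a11 was 5.75-fold lower in HFD+eRapa than ND+veh (log2 fold change -2.52 ± 0.45 (SE), adjusted p = 4.77e-04). Among the Cyp2c genes, Cyp2c37 was 4.46-fold lower (log2 fold change -2.16 ± 0.36 (SE), adjusted p = 2.68e-04), Cyp2c29 3.45-fold lower (log2 fold change -1.79 ± 0.29 (SE), adjusted p = 1.92e-04) and Cyp2c38 3.3-fold lower (log2 fold change -1.72 ± 0.31 (SE), adjusted p = 5.19e-04). Cyp2c68 was 2.23-fold lower (log2 fold change -1.16 ± 0.24 (SE), adjusted p = 0.00217), Cyp2c67 2.08-fold (log2 fold change -1.06 ± 0.23 (SE), adjusted p = 0.00254) and Cyp2c70 1.92-fold (log2 fold change -0.94 ± 0.19 (SE), adjusted p = 0.00183). Cyp2c40 had the largest log2 fold change, -4.31 ± 0.74 (adjusted p = 3.20e-04), on few counts and shared sequence, and on FPKM its groups stood closer, with a mean of 20.4 ± 5.61 for ND+veh (SD, n = 8) against 7.91 ± 2.85 for HFD+eRapa (SD, n = 9). Cyp2c55 was lower (-1.63 ± 0.43, adjusted p = 0.0111), as were Cyp3a59 (-1.03 ± 0.22, adjusted p = 0.00261) and Cyp3a25 (-0.43 ± 0.14, adjusted p = 0.0439).

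Of the higher members, Cyp2f2 was 2.04-fold above ND+veh (log2 fold change 1.03 ± 0.26 (SE), adjusted p = 0.00771), Cyp2a12 1.66-fold (log2 fold change 0.73 ± 0.14 (SE), adjusted p = 7.72e-04) and Cyp2j6 1.4-fold (log2 fold change 0.49 ± 0.11 (SE), adjusted p = 0.00349). Cyp2d9 was 1.85-fold (log2 fold change 0.89 ± 0.24 (SE), adjusted p = 0.0124) and Cyp2d40 1.62-fold (log2 fold change 0.69 ± 0.22 (SE), adjusted p = 0.0332) above ND+veh. On FPKM the Cyp2d9 call was lost at both pseudocounts (0.65, adjusted p = 0.0949 at 1 and 0.0936 at 0.1, limma). Leaving out single libraries ended the Cyp2d40 call for ND+veh replicates 1, 3, 4, 6 and 8 and HFD+eRapa replicates 5, 6 and 8, with log2 fold changes of 0.57 to 0.70. The Cyp3a25 call ended without ND+veh replicate 3, 5, 6, 7 or 8 or HFD+eRapa replicate 1, 4, 5, 6, 7, 8 or 9, with values of -0.44 to -0.36. The members not called in this contrast were not shown to be equal to it. For Cyp2c50 the log2 fold change was -0.16 ± 0.28 (95% interval -0.70 to 0.38), for Cyp2c54 -0.10 ± 0.43 (-0.94 to 0.75) and for Cyp2d10 -0.13 ± 0.14 (-0.41 to 0.15).

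**Figure D5:**
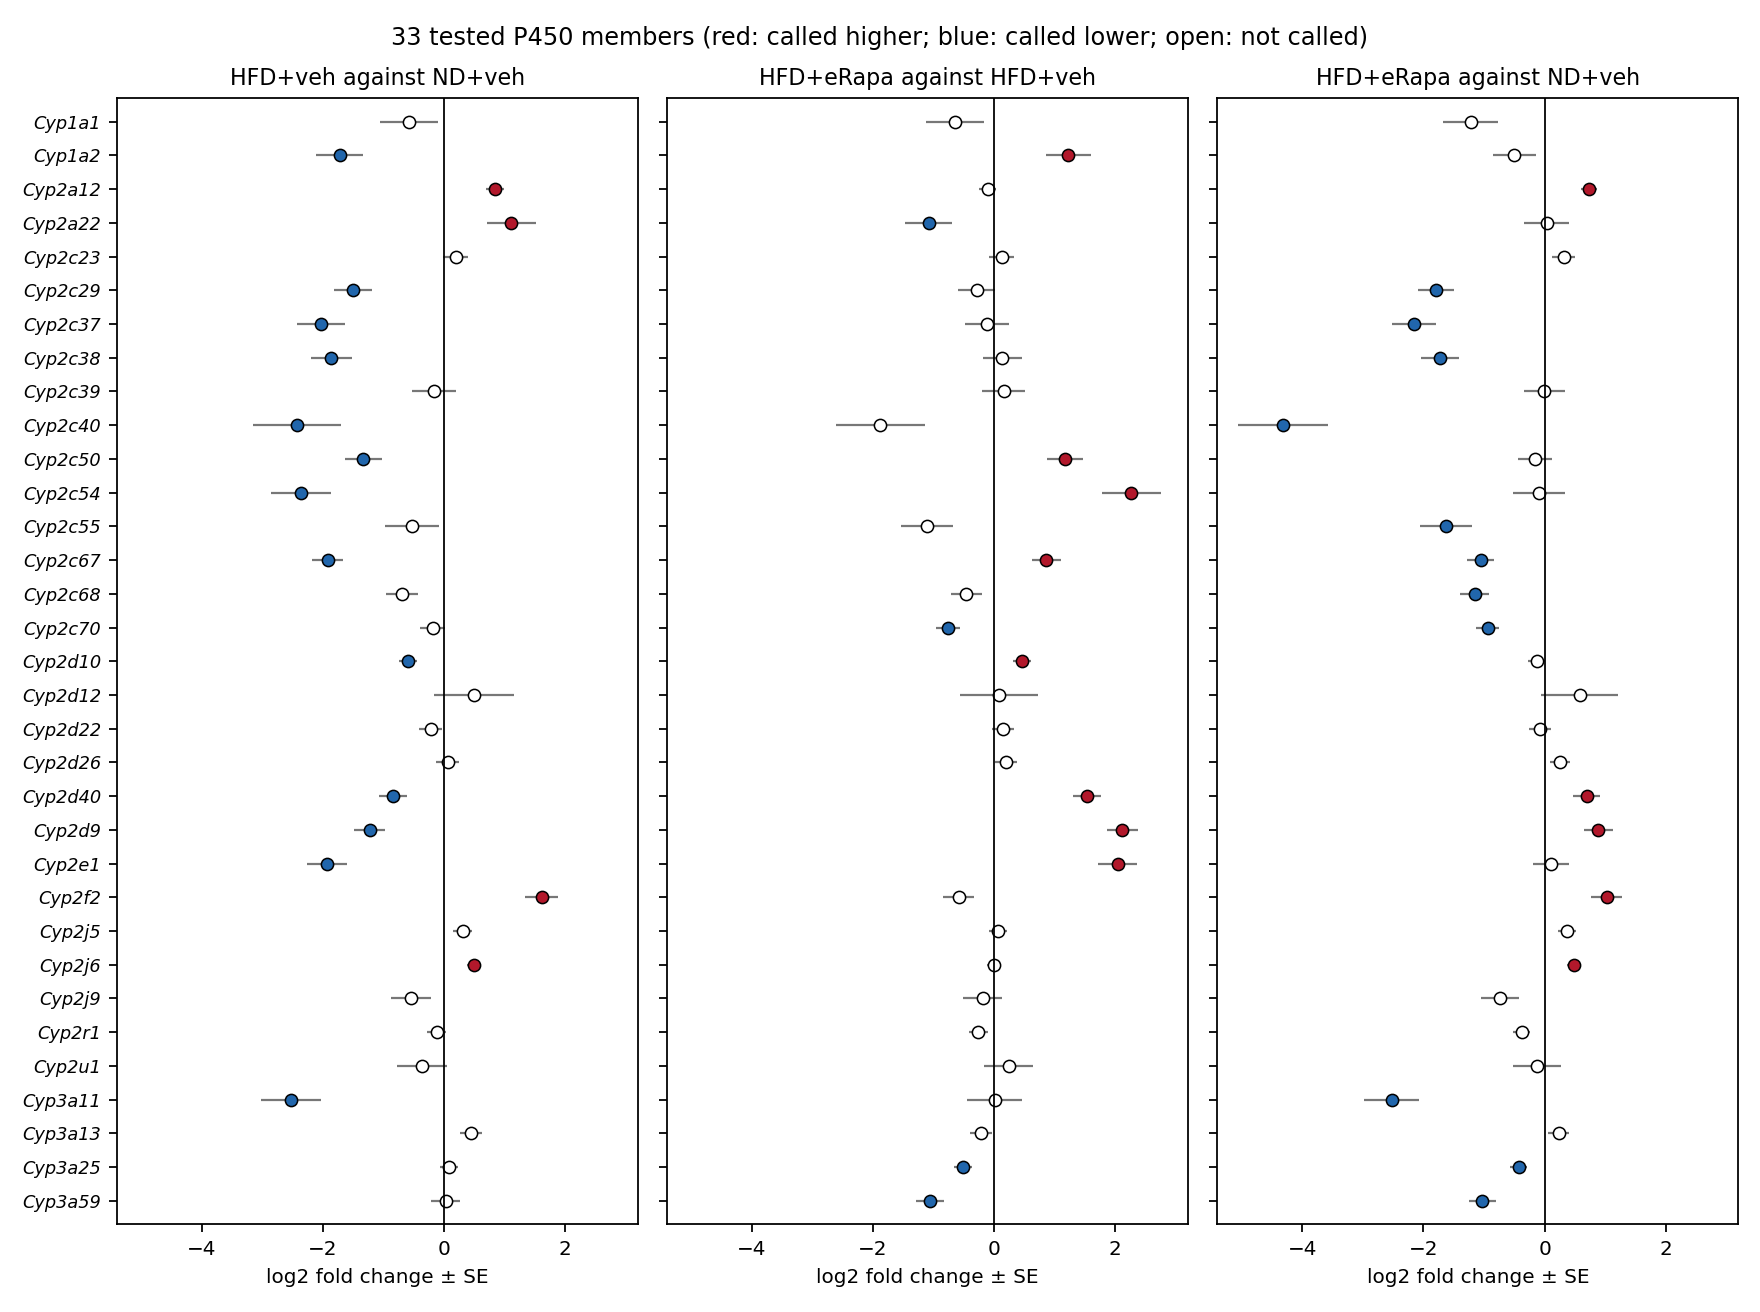
Log2 fold changes ± SE of the 33 tested members in the 3 comparisons, ordered by subfamily (red, called higher, blue, called lower, open, not called). The Cyp2c and Cyp3a calls of HFD+eRapa against ND+veh are all lower, 8 and 3 in number, and its Cyp2d calls are both higher.

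Set side by side, the 33 tested members fell into a few patterns. Lower in HFD+veh, higher with eRapa and not called against ND+veh were 5 (Cyp1a2, Cyp2c50, Cyp2c54, Cyp2d10 and Cyp2e1). Cyp2c67 was called in all 3 contrasts and stood between both other groups. Cyp2d9 and Cyp2d40 were lower in HFD+veh and above ND+veh with eRapa. Lower in both high-fat groups, with no call between them, were 5 (Cyp2c29, Cyp2c37, Cyp2c38, Cyp2c40 and Cyp3a11), and higher in both were 3 (Cyp2a12, Cyp2f2 and Cyp2j6). Lower with eRapa against both other groups were 3 (Cyp2c70, Cyp3a25 and Cyp3a59), and lower against ND+veh only were 2 (Cyp2c55 and Cyp2c68). Cyp2a22 was higher in HFD+veh than in both other groups. The remaining 11 were called in no contrast (Cyp1a1, Cyp2c23, Cyp2c39, Cyp2d12, Cyp2d22, Cyp2d26, Cyp2j5, Cyp2j9, Cyp2r1, Cyp2u1 and Cyp3a13).

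Partners of the P450 enzymes in electron transfer, with genes of haem synthesis and breakdown, were followed in a list of 18 genes, all tested. Por, the oxidoreductase, was not called in HFD+veh against ND+veh (-0.20 ± 0.34, 95% interval -0.87 to 0.46). Lower in HFD+veh were 6, namely the cytochrome b5 gene Cyb5b (-0.50 on the log2 scale) and its reductase Cyb5r3 (-0.47), the haem synthesis genes Alad (-0.72), Cpox (-0.67) and Fech (-0.55), and Blvrb (-0.70). The biliverdin reductase gene Blvra was higher (1.16). In HFD+eRapa against HFD+veh, 6 were higher, among them Cyb5a (0.55), Alad (0.92), Urod (0.45), Cpox (1.03) and Fech (0.31), and 3 lower, namely the haem oxygenases Hmox1 (-1.92) and Hmox2 (-0.33) and Blvra (-1.06). Against ND+veh, Cyb5a alone was called (0.55, higher). The medians of the list, which mixes haem synthesis and breakdown, were -0.38, 0.29 and 0.07 in the 3 contrasts. Of the list 38.9%, 50% and 5.56% were called, beside 25.9%, 32% and 13.5% of all genes. With HFD+veh replicates 3 to 6 left out, none of the 18 was called in HFD+veh against ND+veh, and 2 were called higher with eRapa.

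Of 17 xenobiotic receptors and partners 16 were tested (Ahrr was not). In HFD+veh against ND+veh the AhR target Tiparp was higher (0.67) and the chaperone gene Hsp90ab1 lower (-0.53). Nr1i3, which encodes CAR, was at -0.48 ± 0.35 and Nr1i2, which encodes PXR, at -0.25 ± 0.16, neither called. In HFD+eRapa against HFD+veh, Ahr (0.69), Nr1i2 (0.41), Rxra (0.55) and Hsp90ab1 (0.30) were higher and the coactivator gene Ppargc1a lower (-0.89), and against ND+veh only Ppargc1a was called (-0.78, lower). Medians were -0.19, 0.16 and 0.04. Of those tested 12.5%, 31.25% and 6.25% were called, no more than the 25.9%, 32% and 13.5% of all genes. With those 4 libraries left out, none was called in HFD+veh against ND+veh, and 1 was called, lower, with eRapa.

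Of 19 hepatocyte and sex-pattern regulators 18 were tested (Cux2 was not). Lower in HFD+veh were Cebpb (-0.79), Foxa1 (-1.29), Foxa2 (-1.05), Onecut1 (-1.69) and Stat5b (-0.41), and among those higher were the clock-driven Dbp (2.95) and Tef (1.24) and the oestrogen receptor gene Esr1 (1.70). In HFD+eRapa against HFD+veh, 7 were higher, namely Cebpb (0.97), Foxa1 (1.28), Foxa2 (0.64), Foxa3 (0.95), Onecut1 (2.38), Stat5a (0.59) and the growth hormone receptor gene Ghr (0.51). Against ND+veh, Dbp (3.08), Tef (1.30) and Esr1 (1.33) were higher. The list had medians of -0.33, 0.41 and 0.14. Of those tested 50%, 38.9% and 16.7% were called, beside 25.9%, 32% and 13.5% of all genes. With the libraries high in macrophage markers left out, 3 were called higher in HFD+veh against ND+veh and none lower, and with eRapa 2 were lower and none higher. The part of the other cell types in these lists was not tested further. Of the sex-linked P450 lists, only Cyp2c40 of 4 female-predominant members passed the filter, and its values and those of the male-predominant Cyp2d9 are given above.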

How the data were processed

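Poly(A) RNA of hepatocytes isolated by collagenase perfusion, low-speed washes and a density gradient was sequenced in 24 samples (8, 7 and 9 per group, grouped by the sample labels). The authors aligned reads with STAR to mm10 with Gencode M23, filtered them with SAMtools (1.1.0) and counted reads per gene with HTSeq (0.11.2). The deposited counts are raw and whole, and the authors deposited FPKM from Cufflinks for the same libraries. Whether counting used strand, and how reads of near copies were treated, is not given in the sources used here. All columns matched a library (0 without a sample).

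Members and lists were chosen with earlier results of these data known. Counts were tested with edgeR 4.0.16 (R 4.3.3) in 1 fit of all libraries (filterByExpr, TMM, robust quasi-likelihood, Benjamini-Hochberg over 13847 genes, threshold 0.05). Values by animal are CPM on effective library sizes. Full statistics were given for members called in at least 1 comparison with a mean of at least 10 FPKM, and for the 3 largest changes per comparison among members with a mean of at least 1 FPKM. Further called members and list genes are given by log2 fold change, and some list genes are not reported here. Alternatives used DESeq2 1.42.0, limma 3.58.1 (voom, and log2 of FPKM plus 1 or 0.1), other filters and scalings, single libraries left out, a replicate block and an immune marker score over 18 genes. The fit without HFD+veh replicates 3 to 6 was added after seeing the data. Gene positions came from Gencode M21 (GRCm38), promoters from RefSeq (GRCm38.p6), and shared sequence from 50-base windows of each member's longest protein-coding transcript in Gencode M21. Scripts were tested on simulated data.

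Libraries held 17.7 to 25.9 M counts, and the lowest chi-square per degree of freedom between libraries of a group was 11.3, so no pair agreed within sampling noise. The labels give 1 batch. They do not tie each library to its own animal in words, and p-values measure the spread between these samples. Counting error of a member share was small (a 95% Wilson interval of 0.742 to 0.750% for the lowest) and reads without molecular identifiers are not independent molecules, so it covers counting error only.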

Additional observations from a re-analysis of the deposited data

Results flagged for a closer look

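Single libraries that stood apart from the rest of their group (Dixon's 95% criterion) were found in 9 of 60 groups of values, where chance gives about 3. In ND+veh, replicate 4 was low for Cyp2c29 (7.46 on the log2 CPM scale, the others 9.43 to 9.87), for Cyp2d10 (9.34, the others 9.85 to 10.12) and for Cyp2d40 (5.05, the others 5.82 to 6.43). In HFD+veh, replicate 2 was high for Cyp2c37 (7.62, the others 5.44 to 6.18) and for the members' share of all counts (1.32%, the others 0.746 to 0.964%). In HFD+eRapa, replicate 9 was low for Cyp2c67 (5.76, the others 7.35 to 8.18) and Cyp2c68 (4.92, the others 6.76 to 7.99). HFD+eRapa replicate 6 was high for Cyp2e1 (12.69, the others 12.00 to 12.30) and for the members' share (1.66%, the others 1.20 to 1.39%). Across the 13 members lower in HFD+veh than ND+veh, ND+veh replicate 4 was the lowest of its group for 10 and HFD+veh replicate 2 the highest of its group for 9.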

How the results depend on the processing

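Without single libraries, 16 to 18 members were called in HFD+veh against ND+veh, beside 15.1 to 32% of all genes. In HFD+eRapa against HFD+veh 10 to 15 were called (23.5 to 36.1% of all genes). In HFD+eRapa against ND+veh 14 to 17 were called (10.6 to 13.1% of all genes). Leaving out the 4 HFD+veh libraries high in macrophage markers, chosen after seeing the data, gave 9 and 4 calls in the contrasts with HFD+veh. Of all genes, 4.94% and 3.14% were called in those fits. With changes under 1 on the log2 scale not counted, there were 10 in HFD+eRapa against ND+veh, beside 5.13% of all genes. The other alternatives stayed within 1.5 times of the reported numbers. Replicate numbers are shared by groups. Same-numbered deviations correlated over 0.1 in 5 of 7 pairs of HFD+veh and ND+veh libraries (mean r 0.32). The other contrasts had 2 of 7 and 2 of 8 such pairs (mean r -0.24 and -0.20), and the numbers were not taken as pairing. With the replicate block 16, 11 and 14 members were called, beside 17.8%, 18.3% and 11.4% of all genes. Members called in at least 1 contrast gave 1824 values under the alternatives, which include contrasts where the member was not called. Of these values, 1704 kept their side of the threshold, 95 lost the call, 25 gained it and 0 calls reversed. Some values that were not called changed sign. For Cyp2c37 in HFD+eRapa against HFD+veh, the log2 fold change was -0.12 in the main fit and -0.60 to 0.35 under the alternatives. The calls lost most often were those of Cyp2a22 and, in HFD+eRapa against ND+veh, of Cyp3a25 and Cyp2d40. The Cyp2c40 call in HFD+veh against ND+veh and the Cyp2d10 call in HFD+eRapa against HFD+veh were each lost under 5 alternatives. The cause was not tested. Low counts limit Cyp2c40, Cyp1a1 and Cyp2d12, and shared sequence limits the Cyp2c, Cyp2d and Cyp3a copies.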
